A study of Mus musculus with 26 samples.

Results

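The heat shock chaperones examined here were 10 genes chosen by name from the table of counts. They were Hspa1a, Hspa1b, Hspa8, Hsph1, Hsp90aa1, Hsp90ab1, Dnajb1, Hspb1, Hspd1 and Hspe1, out of 50686 genes listed, and all 10 were among the 17286 genes with enough counts to be tested. RNA-sequencing was carried out on brown adipose tissue (BAT) from 26 male C57BL/6J mice in 4 groups. At thermoneutrality (30 °C in the sample labels and 29 °C in the study's methods), there were 7 mice of each genotype, control and labelled FAKO. The cold groups, kept for 6 h at 5 °C, held 5 control mice and 7 labelled FAKO. All mice were 12 to 16 weeks old and had spent 2 weeks at thermoneutrality. FAKO stands for fat-specific Afadin knockout, in which Cre recombinase driven by the Adiponectin promoter deletes the floxed Afadin gene (Mllt4, named Afdn in the annotation) in adipocytes, while the other cells of the depot keep the gene. Control mice were littermates. The design asks how BAT responds to acute cold and whether that response differs between the genotypes.

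Heat shock proteins bind proteins that are unfolded or newly made, and they help them to fold or pass them on for degradation. Cells raise many of them when proteins unfold, mainly through heat shock factor 1 (Hsf1), which binds repeats of the bases GAA in alternating orientation, named heat shock elements. In the cytosol, Hsp70 proteins (Hspa1a, Hspa1b, Hspa8) take up clients from J-domain proteins such as Dnajb1, exchange their nucleotide with the help of Hsp110 proteins such as Hsph1, and hand some clients to Hsp90 (Hsp90aa1, Hsp90ab1). Hspb1 is a small heat shock protein that holds unfolded proteins, and Hspd1 (Hsp60) with its lid Hspe1 (Hsp10) forms the folding chamber of mitochondria. Brown adipocytes are rich in mitochondria and make heat in the cold.

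The 2 inducible Hsp70 genes are near-identical neighbours on mouse chromosome 17. Hspa1a lies at 34969190 to 34972156 and Hspa1b at 34956436 to 34959238, both on the reverse strand in mm10 with GENCODE M21, each is a single exon, and 9951 bases separate them. The 250 bases before their starts (RefSeq, GRCm38.p6) are shown because these genes varied together in every group, and they differed at 3 bases (98.8% identity). Capitals mark a heat shock element of 2 units, searched as GAANNTTC or TTCNNGAA, each of which is its own reverse complement, so that both strands were covered.

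Hspa1a, chr17:34972157-34972406, reverse strand: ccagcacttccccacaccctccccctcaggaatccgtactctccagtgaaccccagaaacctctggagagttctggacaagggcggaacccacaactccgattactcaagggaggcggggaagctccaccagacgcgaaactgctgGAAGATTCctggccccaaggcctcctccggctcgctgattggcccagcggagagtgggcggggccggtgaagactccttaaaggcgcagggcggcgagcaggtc
Hspa1b, chr17:34959239-34959488, reverse strand: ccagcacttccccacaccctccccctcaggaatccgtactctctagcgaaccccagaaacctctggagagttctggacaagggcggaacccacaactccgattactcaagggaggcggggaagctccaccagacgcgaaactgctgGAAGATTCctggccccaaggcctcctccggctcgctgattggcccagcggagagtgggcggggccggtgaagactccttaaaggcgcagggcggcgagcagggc
Hspb1, chr5:135887669-135887918, forward strand: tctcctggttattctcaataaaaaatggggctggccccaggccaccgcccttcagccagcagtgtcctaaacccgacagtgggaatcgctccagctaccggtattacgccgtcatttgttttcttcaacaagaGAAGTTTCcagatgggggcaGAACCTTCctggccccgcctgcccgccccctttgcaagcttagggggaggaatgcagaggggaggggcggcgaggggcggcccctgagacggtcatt

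Hspb1 (chromosome 5, 135887919 to 135889563, forward strand) is shown with them as a member that rose in the cold and holds 2 such matches. Of the 10 members, 7 had a promoter window of 250 bases before to 50 bases after a start in the RefSeq table, and 6 of these 7 held a 2-unit element in at least 1 window, compared with 17.0% of the 27025 genes with a window (15.1% of all 32851 windows). Dnajb1 held none, which says only that these letters are not in its windows. An element of 3 units, in which GAA and its complement TTC alternate with 2 bases between them and which contains the 2-unit motif, was searched on both strands. It was found for 3 members, Hsph1, Hspd1 and Hspe1, and for 0.662% of the genes with a window. Hsph1 held its match 37 bases after a start. Hspd1 and Hspe1 start 216 bases apart on opposite strands, taking the start of Hspd1 farther into the gene, and both windows held the same run, which reads through overlapping 3-unit matches. A match describes the sequence and is no measure of binding.

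Hsph1, chr5:149636288-149636300, reverse strand: TTCTGGAAAGTTC
Hspe1 and Hspd1, chr1:55088059-55088076, forward strand: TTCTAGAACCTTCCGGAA

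Some members share sequence with other genes, which limits how surely their reads can be placed. Of all windows of 100 bases (the read length) in their transcripts, 56.5% for Hspa1a and 49.9% for Hspa1b also occurred in another gene, with each other and Hspa1l among these. The share was 47.5% for Hsp90aa1, 42.7% for Hspb1, 32.1% for Hspa8 and 26.9% for Hspd1, where the other genes were models named Gm or pseudogenes. It was 0.347% for Hspe1, and no window was shared for Hsph1, Hsp90ab1 or Dnajb1. How reads that fit several genes were counted is not given in the sources used here, so the values of Hspa1a and Hspa1b are uncertain as separate genes. Hspd1 and Hspe1 overlap on opposite strands.

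The total count per mouse ran from 12705969 to 25732258 (median 17237377). Mitochondrial genes took 14.3 to 40.5% of the counts. The 8 brown adipocyte markers were detected in every mouse. Levels are given in CPM, counts scaled to the same library total after each total was multiplied by its TMM factor. These factors, which edgeR estimates for each mouse, ran from 0.759 to 1.29. All 10 skeletal muscle markers were detected in some mice of every group. Their summed level ran from 22.3 to 13387 CPM in control mice and from 17.1 to 3710 CPM in mice labelled FAKO at thermoneutrality. After cold it ran from 10.0 to 13691 CPM in control mice and from 11.1 to 17055 CPM in mice labelled FAKO. The median was 155 CPM in control mice at thermoneutrality and 1951 to 2191 CPM in the other 3 groups, and the ranges of all groups overlapped widely. Afdn ran from 151 to 214 CPM in control mice and from 154 to 231 CPM in mice labelled FAKO at thermoneutrality, which does not show the deletion, with a log2 difference of -0.01 (SE 0.08) whose sign turned with other scalings. After cold it ran from 67.9 to 79.2 CPM in control mice and from 53.3 to 65.3 CPM in mice labelled FAKO, without overlap, and the difference of -0.33 (SE 0.09) missed the threshold in edgeR (adjusted p = 0.116). The study itself reports a smaller rise of Afadin protein in the cold in BAT of FAKO mice, which these RNA counts do not measure. Whether the counted exons lie outside the deleted part was not tested, and mice are named by their labels throughout. In bulk tissue, fewer cells of a type and less RNA per cell cannot be told apart.

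Cold raised 8 of the 10 chaperones in control mice and the same 8 in mice labelled FAKO, and lowered none of the 10. The threshold was an adjusted p below 0.05 in edgeR's quasi-likelihood test over all genes tested. By this rule 31.6% of all tested genes were higher and 33.4% lower in the cold in control mice, and 33.7% and 34.9% in mice labelled FAKO. With library size alone as the scaling, 4165 genes were higher and 6243 lower in control mice in place of 5454 and 5779. The split for mice labelled FAKO was then 3223 and 8384 in place of 5825 and 6035, and 8 members still passed in each genotype. The median log2 fold change of the 10 members was 1.16 in control mice, beside -0.01 over all genes tested, and 1.28 in mice labelled FAKO, beside -0.03. Hspa1a and Hspa1b did not pass in either genotype. No tool or setting tried called a member lower in the cold, and DESeq2 also called 8 members higher in each genotype.

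Summed levels of markers of several cell types also differed between the temperatures, which does not tell numbers of cells from RNA per cell. The brown adipocyte markers were Ucp1, Cidea, Adipoq, Plin1, Fabp4, Pparg, Lipe and Adrb3, and the study reports that cold induces Ucp1 RNA. Those of white adipocytes were Lep, Retn, Nnat and Agt. The summed brown adipocyte markers had a median of 8989 CPM in control mice at thermoneutrality and 26466 CPM after cold, and went from 8588 to 26898 CPM in mice labelled FAKO. White adipocyte markers went from 309 to 79.9 CPM and from 337 to 82.8 CPM, and markers of Schwann cells and nerve from 102 to 66.7 CPM and from 87.3 to 61.4 CPM. For these 3 lists the mice at the 2 temperatures did not overlap in either genotype. Medians of neutrophil markers (2.30 to 8.07 CPM in control mice, 2.54 to 10.5 CPM in mice labelled FAKO) and lymphocyte markers (5.74 to 2.49 CPM and 6.70 to 2.56 CPM) were low. Single mice labelled FAKO stood higher in the cold, with 64.4 CPM of neutrophil markers in mouse 27 and 22.9 CPM of lymphocyte markers in mouse 23. Endothelial markers went from 581 to 803 CPM and from 642 to 774 CPM. Red blood cell markers went from 424 to 455 CPM and from 381 to 841 CPM. The part of these differences in the levels of the chaperones was not tested. Skeletal muscle markers were lower in control mice at thermoneutrality than in the other groups by their medians, and with their summed level as a covariate 10 members rose in control mice and 8 in mice labelled FAKO.

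Hspa8 encodes the constitutive Hsp70 of the cytosol (Hsc70), on chromosome 9 at 40800984 to 40810087. Its level ran from 218 to 416 CPM (median 345) in the 7 control mice at thermoneutrality, and was 1404, 1824, 1827, 1876 and 2417 CPM in the 5 control mice after cold. In mice labelled FAKO it ran from 247 to 482 CPM (median 329) at thermoneutrality and from 1259 to 2226 CPM (median 1550) after cold. Each mouse in the cold was thus above every mouse at thermoneutrality. The rise was 5.40-fold in control mice (log2 2.43, SE 0.18, adjusted p = 3.38e-12) and 5.17-fold in mice labelled FAKO (log2 2.37, SE 0.17, adjusted p = 1.58e-12).

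The inducible Hsp70 genes were low and varied widely. Hspa1a ran from 0.302 to 20.8 CPM (median 2.77) in control mice at thermoneutrality and was 3.48, 4.95, 5.87, 14.3 and 22.2 CPM after cold. Among mice labelled FAKO it ran from 0.355 to 22.5 CPM (median 1.60) at thermoneutrality and from 2.02 to 11.2 CPM (median 4.06) after cold. The groups overlapped in both genotypes. The highest control mouse at thermoneutrality was near the highest in the cold, and the highest mouse labelled FAKO at thermoneutrality was above the highest in the cold. The log2 fold change of Hspa1a was 0.66 (SE 0.83, adjusted p = 0.501) in control mice and 0.26 (SE 0.80, adjusted p = 0.782) in mice labelled FAKO. For Hspa1b, which encodes almost the same protein, the ranges were 0.604 to 27.5 CPM and 0.470 to 30.2 CPM at thermoneutrality, and the 5 control mice after cold had 5.02, 9.34, 10.1, 23.4 and 39.7 CPM. Its log2 fold change was 1.05 (95% interval -0.65 to 2.76, adjusted p = 0.271) in control mice and 0.52 (-1.09 to 2.14, adjusted p = 0.566) in mice labelled FAKO, so that the intervals hold both no change and a rise of several fold.

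This outcome rested on a few mice. Without control mouse 2 and the mouse labelled FAKO 10, the highest mouse of each group at thermoneutrality in most members, Hspa1b passed in control mice (log2 1.73, adjusted p = 0.0328). In mice labelled FAKO both genes then passed, Hspa1a with 1.78 (adjusted p = 0.0263) and Hspa1b with 1.95 (adjusted p = 0.0163). With the summed skeletal muscle markers as a covariate, Hspa1a (1.71, adjusted p = 0.0401) and Hspa1b (2.12, adjusted p = 0.0115) passed in control mice and neither did in mice labelled FAKO. Both of these fits are edgeR's. In the fit limited to the 10 mice with muscle markers below 1000 CPM, of which only 1 was a control mouse in the cold (mouse 18, the lowest of its group in all 10 members), the log2 fold changes turned to -1.58 for Hspa1a and -1.43 for Hspa1b in control mice and to -0.78 and -0.51 in mice labelled FAKO, and none passed.

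Hsph1, the Hsp110 that serves as exchange factor of Hsp70 (chromosome 5, 149614287 to 149636376), rose 5.27-fold in control mice (log2 2.40, SE 0.50, adjusted p = 0.00015). It ran from 13.2 to 74.9 CPM (median 18.8) at thermoneutrality and was 97.7, 161, 190.5, 205 and 251 CPM after cold, with no overlap. Among mice labelled FAKO it ran from 12.0 to 130.0 CPM (median 19.9) at thermoneutrality and from 91.3 to 198 CPM (median 138) after cold, a 4.04-fold rise (log2 2.01, SE 0.47, adjusted p = 0.000472). The overlap came from the mouse labelled FAKO 10, since the next highest at thermoneutrality had 35.4 CPM, and without this mouse the log2 fold change was 2.84. Among the 10 mice with low muscle markers, with mouse 18 as the only control mouse in the cold, Hsph1 did not pass in either genotype (1.03, adjusted p = 0.211, and 1.18, adjusted p = 0.10).

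Dnajb1, the J-domain protein also called Hsp40 (chromosome 8, 83608193 to 83612653), rose least of the 8. It ran from 20.6 to 55.9 CPM (median 36.3) in control mice at thermoneutrality and was 41.0, 41.3, 62.7, 70.5 and 98.5 CPM after cold, so the groups overlapped. The log2 fold change was 0.78 (SE 0.29, adjusted p = 0.0186), and without control mouse 19 it was 0.56 and missed the threshold (adjusted p = 0.10). Among the 10 mice with low muscle markers it was -0.10. In mice labelled FAKO, Dnajb1 ran from 20.2 to 52.8 CPM at thermoneutrality and from 37.4 to 99.7 CPM after cold (log2 0.98, SE 0.27, adjusted p = 0.00212), also with overlap.

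The largest rise among the members was that of Hsp90aa1, the inducible form of cytosolic Hsp90 (chromosome 12, 110690605 to 110702728). In control mice it ran from 54.7 to 130 CPM (median 77.7) at thermoneutrality and was 519, 552, 758, 770 and 808 CPM after cold. In mice labelled FAKO it ran from 54.7 to 145 CPM (median 69.0) at thermoneutrality and from 510 to 778 CPM (median 662) after cold, and the groups did not overlap in either genotype. The rise was 7.65-fold in control mice (log2 2.93, SE 0.21, adjusted p = 4.05e-12) and 8.36-fold in mice labelled FAKO (log2 3.06, SE 0.21, adjusted p = 6.58e-13). Among the 10 mice with low muscle markers the log2 fold change in control mice was 2.33. Hsp90ab1, the constitutive form (chromosome 17, 45567775 to 45573271), started higher and rose less. It ran from 505 to 912 CPM (median 790) in control mice at thermoneutrality and was 1490, 1637, 1889, 1993 and 2004 CPM after cold, a 2.32-fold rise (log2 1.21, SE 0.12, adjusted p = 1.51e-09). Among mice labelled FAKO the ranges were 574 to 898 CPM and 1467 to 2056 CPM (log2 1.28, SE 0.11, adjusted p = 1.26e-10).

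Hspb1, the small heat shock protein Hsp27 (Hsp25 in mice), ran from 20.5 to 46.9 CPM (median 34.3) in control mice at thermoneutrality and was 48.7, 60.4, 66.8, 80.7 and 91.4 CPM after cold. The rise was 2.10-fold (log2 1.07, SE 0.21, adjusted p = 5.9e-05) without overlap, although the highest mouse at thermoneutrality and the lowest in the cold lay close together. Among the 10 mice with low muscle markers it did not pass in control mice (log2 0.35, adjusted p = 0.346). Its range in mice labelled FAKO went from 18.7 to 49.4 CPM at thermoneutrality to 50.5 to 84.6 CPM after cold (log2 1.29, SE 0.19, adjusted p = 1.59e-06).

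The mitochondrial pair rose with small spread. Hspd1 (chromosome 1, 55077835 to 55088243) ran from 261 to 340 CPM in control mice at thermoneutrality and was 612, 613, 652, 700 and 748 CPM after cold (log2 1.10, SE 0.08, adjusted p = 9.46e-12). Among mice labelled FAKO it went from 252 to 324 CPM to 569 to 811 CPM (log2 1.21, SE 0.08, adjusted p = 3.38e-13). Its lid Hspe1 (chromosome 1, 55088132 to 55091307) ran from 56.0 to 76.3 CPM in control mice at thermoneutrality and was 184, 214, 214, 232 and 283 CPM after cold (log2 1.81, SE 0.12, adjusted p = 6.63e-13). Hspe1 in mice labelled FAKO went from 49.5 to 77.0 CPM to 185 to 287 CPM (log2 1.84, SE 0.11, adjusted p = 1.14e-13). Neither gene overlapped between temperatures in either genotype.

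Over the members, the groups did not overlap for 7 in control mice, where 23.5% of all tested genes were higher in the cold without overlap. Among mice labelled FAKO they did not overlap for 6, beside 21.1% of all tested genes.

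**Figure D1:**
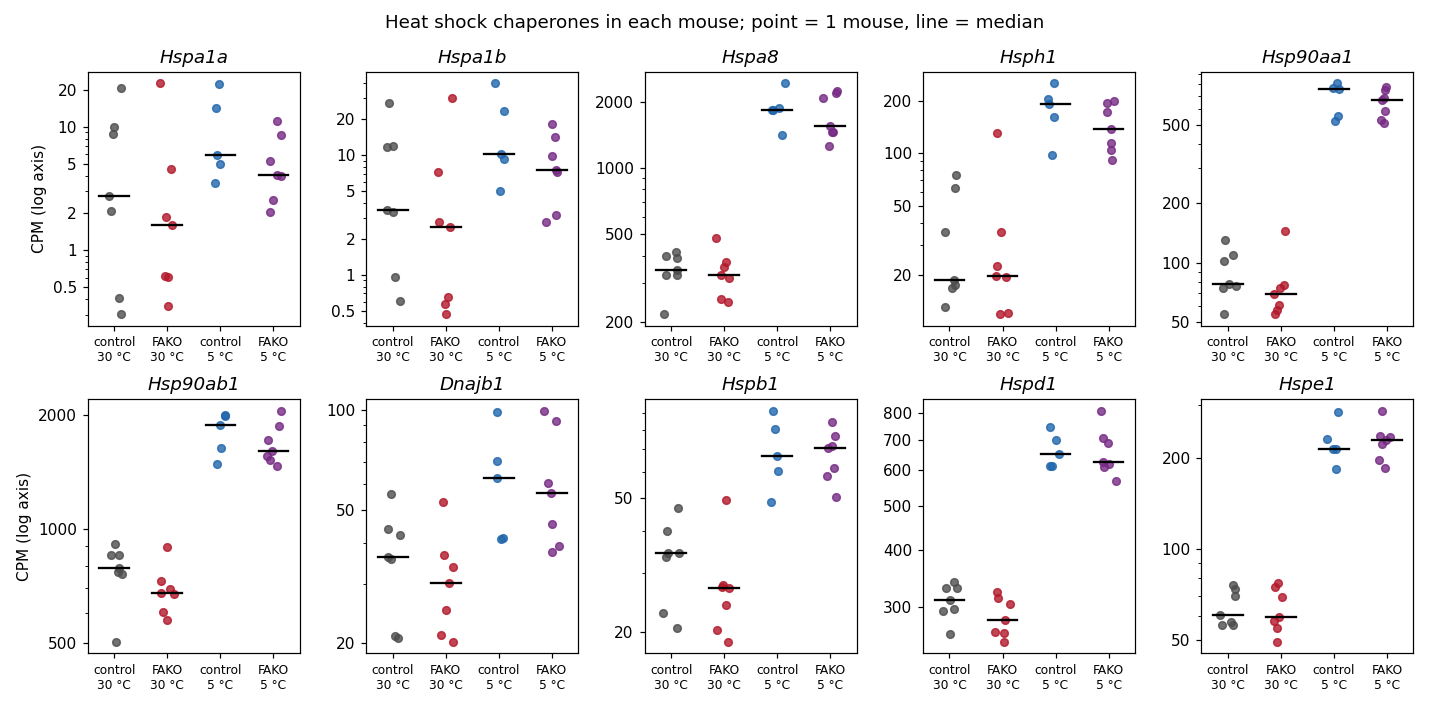
Level of each member in CPM (log axis) in the 4 groups, 1 point per mouse with the group median as a line. For Hspa8, Hsp90aa1, Hsp90ab1, Hspb1, Hspd1 and Hspe1 all mice at 5 °C lie above all mice at thermoneutrality of the same genotype, while Hspa1a and Hspa1b overlap.

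Per kilobase of exon, which allows a rough comparison of levels between genes, Hsp90ab1 was the highest member in every group. In control mice at thermoneutrality its median was 263 CPM per kb, followed by Hspd1 (118), Hspa8 (80.3), Hspe1 (41.1), Hspb1 (33.3), Hsp90aa1 (19.8), Dnajb1 (11.3), Hsph1 (2.58), Hspa1b (1.24) and Hspa1a (0.933). The mice did not overlap between Hsp90ab1 and Hspd1, or between Hspd1 and Hspa8, and from Hspa8 downwards each neighbouring pair overlapped. After cold the order in control mice was Hsp90ab1 (630 CPM per kb), Hspa8 (425), Hspd1 (247), Hsp90aa1 (193), Hspe1 (145), Hspb1 (64.8), Hsph1 (26.2), Dnajb1 (19.6), Hspa1b (3.62) and Hspa1a (1.98). Here Hsp90ab1 overlapped with Hspa8, Hsp90aa1 with Hspe1, Hsph1 with Dnajb1, Dnajb1 with Hspa1b and Hspa1b with Hspa1a. By these values the inducible Hsp70 genes had the lowest medians of the 10 at both temperatures, with the constitutive Hspa8 far above them. The medians of mice labelled FAKO had the same order as those of control mice at both temperatures. Reads that fit several genes may be missing from these levels. The share of such windows was 56.5% for Hspa1a, 49.9% for Hspa1b, 47.5% for Hsp90aa1 and 42.7% for Hspb1, while Hsph1 had none. The places of these genes in the order are therefore uncertain.

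Between control mice and mice labelled FAKO, no member passed the threshold at either temperature. At thermoneutrality 0.081% of all tested genes passed, and after cold 0.139%. No member had an unadjusted p below 0.05, beside 7.65% of all tested genes at thermoneutrality and 13.4% after cold, and DESeq2 also called no member. The estimates at thermoneutrality ran from -0.51 (Hspa1a) to 0.06 (Hsph1) on the log2 scale, with 9 of 10 below 0, and the smallest adjusted p was 0.778. After cold they ran from -0.96 (Hspa1b) to 0.01 (Hspe1), with 9 of 10 below 0, and the smallest adjusted p was 0.653. Members share mice and varied together, so this count of signs is no separate evidence. At thermoneutrality the median of the summed muscle markers was 155 CPM in control mice and 1951 CPM in mice labelled FAKO, and with them as a covariate no member passed by label at either temperature.

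How large a difference between genotypes could have been missed varied between the members. For Hspd1 after cold the 95% interval ran from -0.18 to 0.17 on the log2 scale, for Hsp90ab1 from -0.35 to 0.15 and for Hspa8 from -0.46 to 0.26. For Hsph1 it ran from -1.33 to 0.69, and for Hspa1b from -2.66 to 0.74. The cold response itself did not differ between the genotypes past the threshold for any member either, where 1.16% of all tested genes passed. The difference of the responses (FAKO minus control) ran from -0.53 (Hspa1b, SE 1.15) to 0.22 (Hspb1, SE 0.28), with a smallest adjusted p of 0.702. None had an unadjusted p below 0.05, beside 16.2% of all tested genes, and DESeq2 called none. For Hspa8 its 95% interval was -0.55 to 0.42 and for Hsp90aa1 -0.46 to 0.71. Both comparisons of the label share mice with the comparisons of cold.

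**Figure D2:**
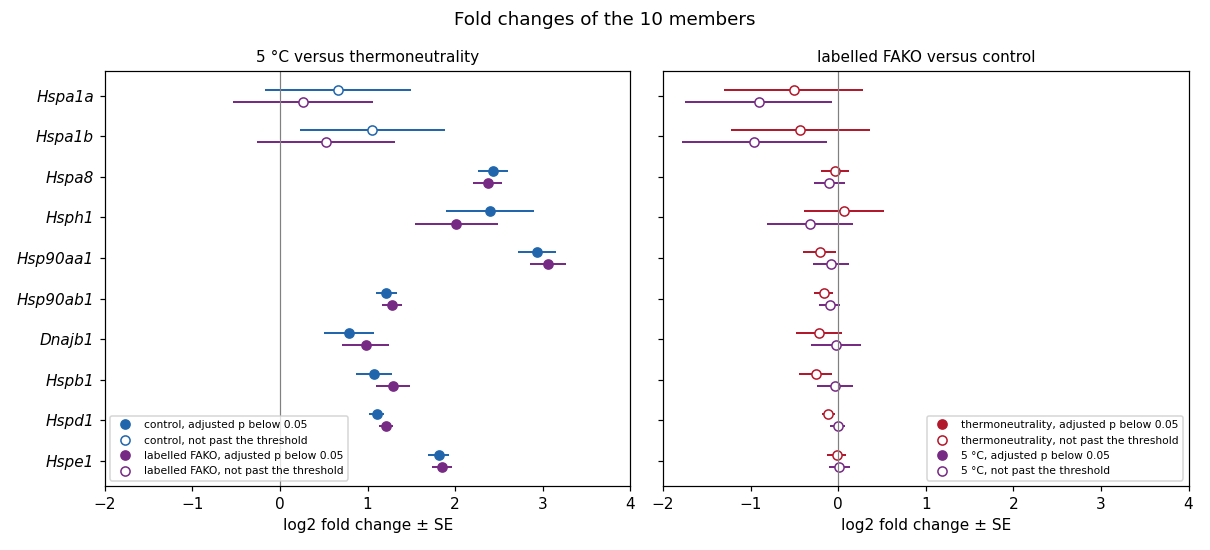
Log2 fold change with its standard error for each member, for cold within each genotype (left) and for the FAKO label at each temperature (right), with filled points past the threshold. On the left 8 members are filled in both genotypes, from 0.78 for Dnajb1 to 3.06 for Hsp90aa1, and on the right none is filled.

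Related genes and partners that work together did not all rise alike. The ratio of counts of Hsp90aa1 to Hsp90ab1 within a mouse, which does not depend on the scaling of the libraries, had a median of 0.108 (0.0894 to 0.142) in control mice at thermoneutrality and of 0.380 (0.337 to 0.428) after cold. The log2 difference was 1.74 (p = 0.00126 by an exact permutation test, two-sided, and 0.00421 after adjustment over 20 tests). In mice labelled FAKO the median went from 0.102 to 0.364 (log2 difference 1.84, exact permutation p = 0.000583, adjusted p = 0.00389). These p-values are the smallest that the groups allow. The 2 Hsp90 transcripts thus moved closer in number, with no overlap between temperatures.

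Of the mitochondrial pair, RNA of the lid Hspe1 gained on RNA of the chamber protein Hspd1. The ratio of Hspd1 to Hspe1 counts went from a median of 4.87 to 2.86 in control mice (log2 difference -0.70) and from 4.54 to 3.01 in mice labelled FAKO (-0.64), with the same exact permutation p-values and no overlap. Dnajb1 fell behind Hspa8, from 0.110 to 0.0334 counts per count of Hspa8 in control mice (log2 difference -1.65) and from 0.0975 to 0.0294 in mice labelled FAKO (-1.42), again with the smallest p and no overlap. For Hsph1 to Hspa8 the log2 differences of 0.20 and 0.11 did not pass (exact permutation, adjusted p = 0.792 and 0.826). Hspa1a plus Hspa1b to Hspa8 differed by -0.86 and -0.78 and did not pass (adjusted p = 0.659 for both, exact permutation). No ratio passed between control mice and mice labelled FAKO, where the smallest adjusted p was 0.534 (exact permutation test).

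**Figure D3:**
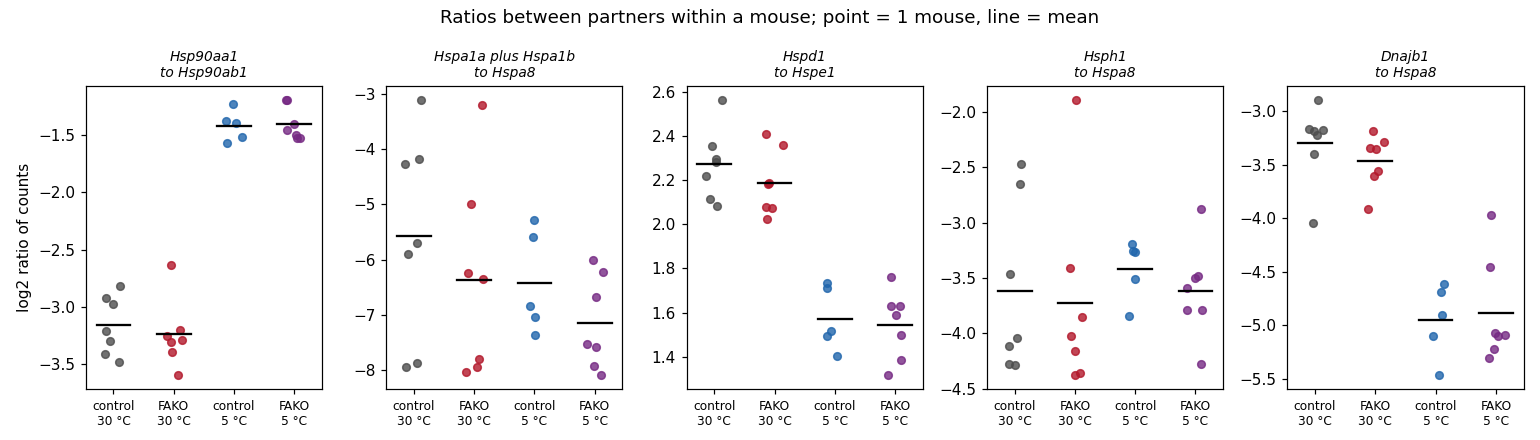
Log2 of 5 ratios of counts between related genes or partners, 1 point per mouse with the group mean as a line. Hsp90aa1 to Hsp90ab1 is higher, and Hspd1 to Hspe1 and Dnajb1 to Hspa8 are lower, in every mouse at 5 °C than in any mouse of the same genotype at thermoneutrality, and the other ratios overlap.

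Among mice of the same group, the members spread very unequally. The SD of log2 CPM within groups was 1.65 for Hspa1a and for Hspa1b, larger than that of 99.3% of the 17286 genes tested. It was 0.87 for Hsph1 (97.8%), 0.53 for Dnajb1 (88.4%), 0.38 for Hspb1, 0.37 for Hsp90aa1 and 0.32 for Hspa8. It was 0.22 for Hsp90ab1 and Hspe1 and 0.15 for Hspd1 (21.5%), below the median of 0.25 over all genes tested. Genes of low count spread more. Among the 10038 genes with a mean of at least 5 CPM, 99.4% had a smaller SD than Hspa1a and Hspa1b, 71.5% than Hsp90ab1 and 70.3% than Hspe1, and 36.9% than Hspd1.

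The same mice were high or low for most members. Control mouse 2 was the highest of its group at thermoneutrality in 9 of 10 members, and the mouse labelled FAKO 10 in 8. In the cold, control mouse 18 was the lowest of its group in all 10 members, and control mouse 19 the highest in 6. Over the 26 mice, after the group means were subtracted, all 45 pairs of members had a positive correlation (Pearson r from 0.18 to 0.98, median 0.66), the highest being between Hspa1a and Hspa1b. The 28 pairs outside mitochondria had a median of 0.76, Hspd1 and Hspe1 had 0.71 with each other and a median of 0.47 with the other members. These are descriptions over mice that also share library, depth and tissue make-up.

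The 5 genes most like the mean of the members, by Pearson r over the 26 mice after subtraction of group means and among 10028 genes, were Ahsa2 (0.93), Dnaja1 (0.91), Jmjd6 (0.88), Cacybp (0.85) and Chordc1 (0.82). The mean was taken without scaling the members. Hspa1a and Hspa1b (SD 1.65 each within groups) thus weighed most in it, and Hspd1 (SD 0.15) least. Spearman's rho for them ran from 0.84 to 0.90, and without the 2 mice farthest from the median (control mouse 2 and the mouse labelled FAKO 10) r ran from 0.76 to 0.90. Ahsa2 and Chordc1 belong to families that work with Hsp90, Dnaja1 is a J-domain protein, and Cacybp binds ubiquitin ligases. A pattern alike within groups did not go with a rise in the cold for each of them. By edgeR in control mice, Ahsa2 stood at -0.05 in log2 fold change (SE 0.19, adjusted p = 0.836) and Dnaja1 at 0.62 (SE 0.31, adjusted p = 0.083). The others rose, Chordc1 by 1.48 (SE 0.24, adjusted p = 6.5e-06), Jmjd6 by 0.82 (SE 0.15, adjusted p = 2.06e-05) and Cacybp by 0.75 (SE 0.14, adjusted p = 2.69e-05).

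Skeletal muscle markers moved against 3 of the 10 members past the threshold. In an edgeR fit with the summed level of the markers as a covariate, all 10 members had a negative slope. It passed for Hspa1a (-0.28 log2 units per doubling of the markers, SE 0.08, adjusted p = 0.0452), Hspa1b (-0.28, SE 0.08, adjusted p = 0.0418) and Dnajb1 (-0.10, SE 0.02, adjusted p = 0.0124). Of all tested genes, 0.289% passed with a negative slope. The slopes of the other members did not pass, and those of Hspd1 and Hspe1 were both -0.01 (adjusted p = 0.566 and 0.722 in the same fit). The mean deviation of the members was not scaled, so that Hspa1a and Hspa1b weighed most in it. The level of 1000 CPM was chosen after seeing the data. At thermoneutrality this mean deviation was -0.11 to 0.95 in the 4 control mice with markers below 1000 CPM and -0.83 to -0.20 in the other 3. It was 0.39 to 1.35 in the 2 mice labelled FAKO below this level and -0.71 to 0.06 in the other 5. After cold, the 3 mice labelled FAKO below this level had mean deviations of 0.05, 0.32 and 0.56, and the 2 with the highest muscle markers both had -0.45. Control mice after cold did not share this pattern, since mouse 18, the only one below this level, had the lowest chaperones of its group. The part of muscle tissue in these differences was not tested beyond the fits given.

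**Figure D4:**
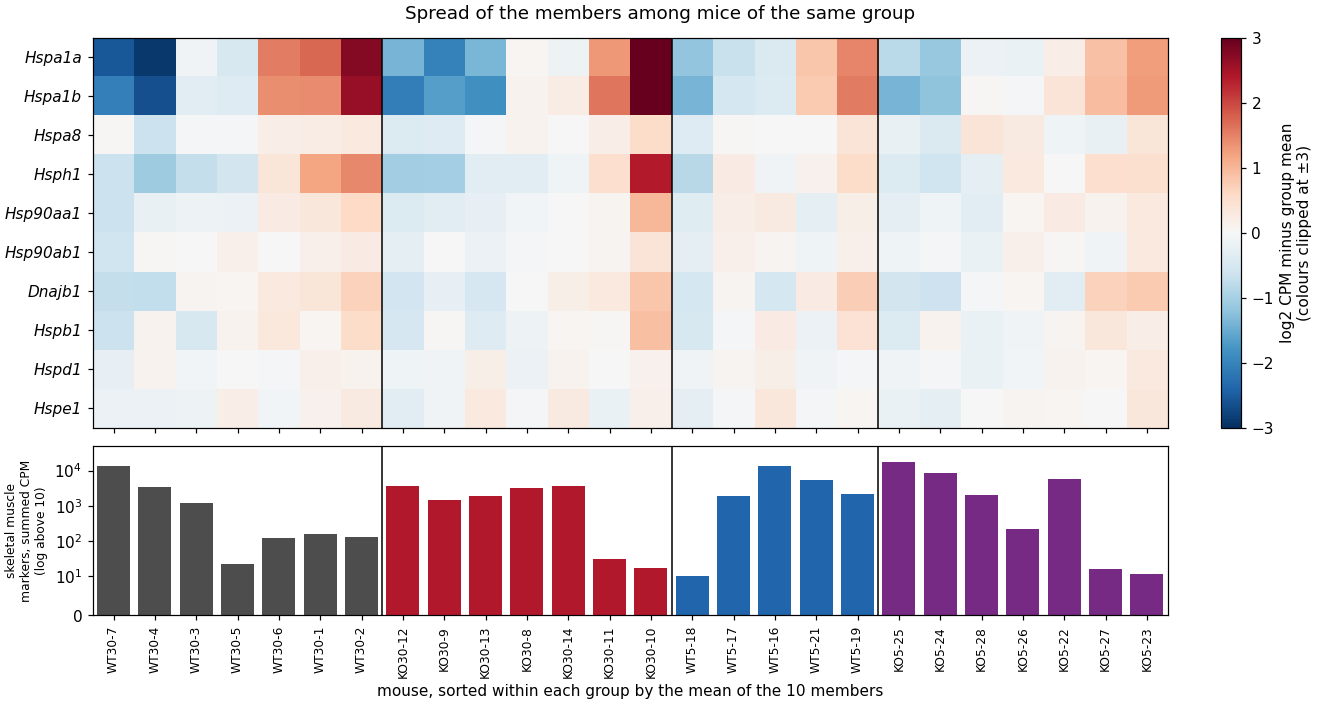
Upper panel, deviation of log2 CPM from the group mean for each member (rows) and mouse (columns, sorted within each group by the mean of the members), with colours clipped at 3. Lower panel, summed skeletal muscle markers in CPM (log axis above 10, linear below): at thermoneutrality the mice with the highest chaperones, control mouse 2 (WT30-2) and the mouse labelled FAKO 10 (KO30-10), had 128 and 17.1 CPM.

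The wider chaperone system was described by 11 lists of 135 genes, of which 128 were tested. In control mice 74 rose in the cold, 22 fell and 32 did not pass, with a median log2 fold change of 0.50. Among mice labelled FAKO 83 rose, 16 fell and 29 did not pass, with a median of 0.56. These counts stand beside the 31.6% and 33.7% of all tested genes that were higher and the 33.4% and 34.9% that were lower. By list, the number that rose in mice labelled FAKO was 15 of 19 Hsp90 co-chaperones (1 fell), 8 of 10 exchange factors (1 fell), 12 of 21 J-domain proteins (2 fell), 8 of 9 TRiC subunits (1 fell), 12 of 14 chaperones of the endoplasmic reticulum (2 fell) and 11 of 16 in mitochondria (2 fell). It was 5 of 8 prefoldin subunits (0 fell), 6 of 13 stress ubiquitin and immediate early genes (1 fell), 3 of 7 other Hsp70 and Hsp110 proteins (3 fell), 2 of 6 small heat shock proteins (1 fell) and 1 of 5 heat shock factors and regulators (2 fell). The values of named genes that follow are those of control mice unless another group is given. Between control mice and mice labelled FAKO, edgeR called none of the 128 at thermoneutrality (13 with an unadjusted p below 0.05) or after cold (9), and DESeq2 called none. For the difference of the cold responses edgeR called none (13 with an unadjusted p below 0.05) and DESeq2 called 1, the mitochondrial Hsp90 Trap1. Of all tested genes, 7.65% had an unadjusted p below 0.05 in edgeR at thermoneutrality, 13.4% after cold and 16.2% for the difference of the responses.

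Partners of Hsp70 and Hsp90 mostly rose. Of 19 Hsp90 co-chaperones 13 rose and 1 fell in control mice (median log2 0.75). Fkbp5, which binds Hsp90 and is known as a glucocorticoid target, rose from 12.1 to 31.3 CPM to 89.1 to 118 CPM (log2 2.45, SE 0.22, adjusted p = 2.29e-10). Ahsa1, which stimulates the ATPase of Hsp90, rose by 1.62 (SE 0.11), and Tomm34 fell by 0.71. Of 10 exchange factors and partners of Hsp70, 6 rose and 1 fell (median 0.57). Bag3, which links Hsp70 to autophagy, rose by 2.11 (SE 0.17) and Hspbp1 by 1.43 (SE 0.11), and Bag4 fell by 0.28.

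Among the 7 other Hsp70 and Hsp110 proteins, 3 rose and 3 fell. The Hsp110 proteins Hspa4l (from 42.3 to 68.2 CPM to 270 to 383 CPM, log2 2.52, SE 0.15) and Hspa4 (1.64, SE 0.08) rose, whereas Hspa12a fell by 1.97 and Hspa2 by 1.00. Of 21 J-domain proteins of cytosol and nucleus 11 rose and 4 fell, with Dnajc27 at 2.10 (SE 0.12), Dnaja4 at 1.41 (SE 0.16), Dnajc12 at -2.20 (SE 0.18) and Dnajc9 at -0.55 (SE 0.11). Small heat shock proteins were split, with 2 of 6 higher and 2 lower. Hspb8, the partner of Bag3, rose from 13.1 to 56.9 CPM to 86.8 to 156 CPM (log2 2.36, SE 0.25, adjusted p = 3.83e-09). Hspb7 rose from a level near 0 (0.0644 to 3.03 CPM to 0.858 to 12.8 CPM, log2 2.53, SE 0.84, adjusted p = 0.0104), and Hspb11 fell by 1.23. The other that fell, Hspb2 (-1.42), was named after its value was seen. Hspb7 is a gene of heart and skeletal muscle, and the part of muscle in its values was not tested.

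Subunits of the cytosolic chaperonin TRiC, which folds actin and tubulin, rose nearly as a whole. In control mice 8 of 9 rose (median 0.76), with Cct3 at 1.56 (SE 0.08) and Cct2 at 1.02 (SE 0.06). The exception was Cct6b, a form known from testis, at -2.50 (SE 0.35), which was named after its value was seen. Of 8 subunits of prefoldin, which delivers clients to TRiC, 4 rose and 1 fell, from Pfdn4 at 1.06 (SE 0.10) to Pfdn5 at -0.16 (SE 0.06). Mitochondrial chaperones and proteases beside Hspd1 and Hspe1 had 9 of 16 higher and 3 lower (median 0.33). Hspa9, the mitochondrial Hsp70, rose by 0.96 (SE 0.06) and its exchange factor Grpel1 by 1.16 (SE 0.07), while Hscb, which serves iron-sulfur cluster assembly, fell by 1.21.

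In the endoplasmic reticulum 11 of 14 chaperones rose and 2 fell (median 0.66). Dnajb9 rose from 9.50 to 26.6 CPM to 94.8 to 119 CPM (log2 2.44, SE 0.16, adjusted p = 6.99e-13) and Manf by 1.59 (SE 0.13), while the disulfide isomerases Pdia4 and Pdia6 fell by 0.77 and 0.39. Of the 13 stress ubiquitin and immediate early genes, 5 rose and 2 fell in control mice (median -0.05), and 6 rose and 1 fell in mice labelled FAKO (median 0.65). Atf3 rose by 1.68 (SE 0.48) and Fosb by 1.90 (SE 0.65), and Egr1 (-1.75, SE 0.75, adjusted p = 0.0428) and Gadd45b (-1.61, SE 0.32) fell. Atf3 rose by 2.90 (SE 0.48) and Fosb by 2.82 (SE 0.68) in mice labelled FAKO, while Egr1 stood at -1.04 (SE 0.67, adjusted p = 0.167) and did not pass. The difference between the responses did not pass for any of these 3 genes.

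Of the 5 heat shock factors and regulators tested, 2 rose and 2 fell in control mice, and those that rose did so by less than any of the 8 members called. Hsf1 ran from 12.0 to 15.7 CPM in control mice at thermoneutrality and from 15.3 to 20.6 CPM after cold (log2 0.35, SE 0.12, adjusted p = 0.0104). In mice labelled FAKO its log2 fold change was 0.07 (SE 0.11, adjusted p = 0.575), and the difference between the responses did not pass (-0.28, SE 0.16, adjusted p = 0.39). Hsf2 rose by 0.59 (SE 0.09) in control mice and 0.53 (SE 0.09) in mice labelled FAKO. Hsf4 fell by 2.65 (SE 0.21) from 2.94 to 5.28 CPM, and Hsf3 by 1.25 (SE 0.27), both at low levels. The activity of heat shock factors is set largely on the protein, which RNA does not measure.

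**Figure D5:**
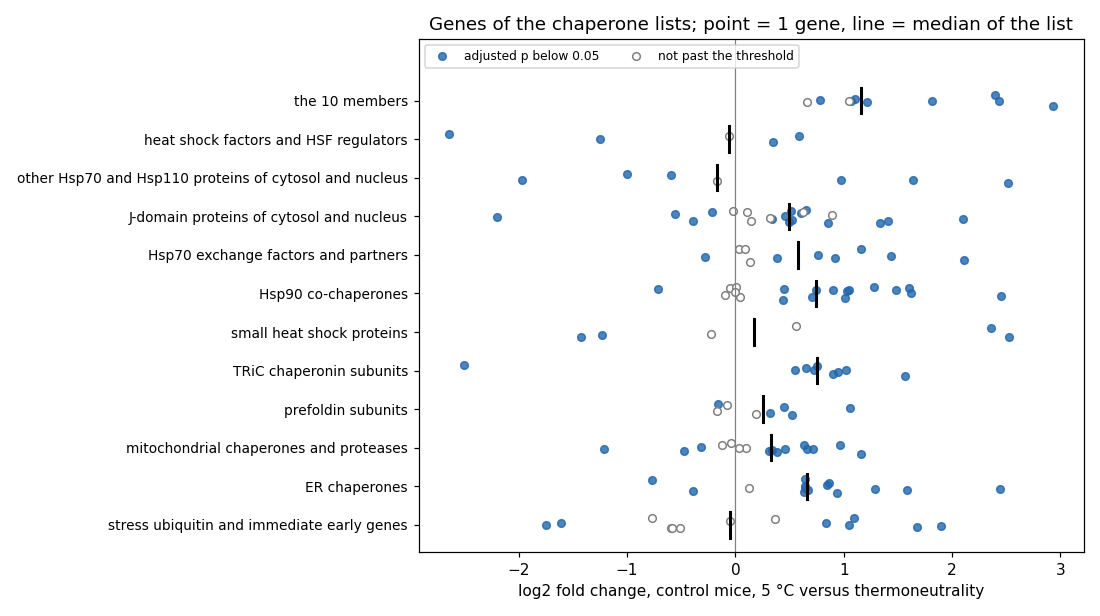
Log2 fold change in the cold in control mice for each gene of the 10 members and of the 11 lists, 1 point per gene, filled where past the threshold, with the median of each list as a line. Members, TRiC subunits, Hsp90 co-chaperones and chaperones of the endoplasmic reticulum have their medians at 1.16, 0.76, 0.75 and 0.66, beside -0.01 over all genes tested.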

How the data were processed

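RNA-sequencing counts of BAT from 26 mice were used, grouped by their sample labels. The authors made stranded libraries from rRNA-depleted total RNA and used STAR (v2.5.2b, mm10) for alignment and featureCounts (v1.5.2) for counting. They deposited raw counts per gene, not normalized. The strand setting and the handling of reads that fit several genes are not given in the sources used here.

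Gene names came from GENCODE M21 (50376 of 50686 IDs matched). Genes were kept with filterByExpr by group (17286). One quasi-likelihood model of edgeR 4.0.16 (legacy mode, R 4.3.3, TMM factors, 1 term per group) was fitted to all 4 groups, with Benjamini-Hochberg adjustment over all genes tested and a threshold of 0.05. Standard errors were the log2 fold change divided by the square root of F, and 95% intervals used the t quantile at the test's degrees of freedom. Ratios were compared with exact two-sided permutation tests on log2 counts plus 0.5. Log2 CPM for spread and likeness had a prior count of 2. All 73 pairs of mice of a group differed by more than sampling noise. Alternatives included DESeq2 1.42.0, other scalings and filters, a muscle covariate and leaving out each mouse. Steps were tested on simulated data.

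The members and lists were chosen with earlier results of these data known. Named were the members, Afdn, Hsf1, at most 2 genes per direction and list with the largest change in control mice past the threshold and a mean of at least 1 CPM, and the 5 genes most alike. Promoter sequences are RefSeq's (GRCm38.p6).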

Additional observations from a re-analysis of the deposited data

Results flagged for a closer look

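In 60 groups of 5 to 7 mice (10 genes and 5 ratios in 4 groups), 9 had a mouse that stood apart from the others by Dixon's test. Genes were tested as CPM and ratios as log2 ratios. A rate of about 1 in 20 by chance holds for separate groups of normally distributed values. These groups share mice and genes that varied together, and CPM of Hspa1a spread up to 68.8-fold within a group. The 9 flags therefore cannot be set against that rate and serve as a description. At thermoneutrality, the mouse labelled FAKO 10 was flagged for 5 genes. It had 22.5 CPM of Hspa1a (next 4.54), 30.2 CPM of Hspa1b (next 7.25), 130.0 CPM of Hsph1 (next 35.4), 145 CPM of Hsp90aa1 (next 76.7) and 49.4 CPM of Hspb1 (next 27.6). Its log2 ratios of Hsp90aa1 to Hsp90ab1 (-2.63, next -3.20) and of Hsph1 to Hspa8 (-1.89, next -3.41) were flagged too. Its skeletal muscle markers, at 17.1 CPM, were the lowest of its group. Control mouse 2 was flagged for Hspa1b with 27.5 CPM (next 11.9). Control mouse 7 was flagged as the lowest for Hsp90ab1 with 505 CPM (next 761). It had the lowest share of mitochondrial counts (14.3%) and 13387 CPM of muscle markers. The part of muscle tissue in these values was not tested.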

How the results depend on the processing

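Of the counts of members called, that of control mice in the cold moved past 1.5 times, from 8 to 5, when only the 10 mice with muscle markers below 1000 CPM were fitted, a choice made after seeing the data that left 1 control mouse in the cold, assumed to vary like the others. This was mouse 18, the lowest of its group in all 10 members. That fit also turned Dnajb1 to -0.10 and no longer called Hsph1 (1.03, adjusted p = 0.211) and Hspb1 (0.35, adjusted p = 0.346) in control mice, or Hsph1 (1.18, adjusted p = 0.10) in mice labelled FAKO. It turned Hspa1a and Hspa1b in the cold (-1.58 and -1.43 in control mice, -0.78 and -0.51 in mice labelled FAKO), Hspa1a by label at thermoneutrality (0.39), Hspa1b by label after cold (1.40) and the difference of its responses (0.91). The cause was not tested. Under the other settings 8 to 10 members were called higher in each genotype, and leaving out each mouse gave 7 to 8 in control mice (7 without control mouse 19) and 8 to 10 in mice labelled FAKO (10 without the mouse labelled FAKO 10, with Hspa1a at 1.78 and Hspa1b at 1.95). No setting called a member by label.

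Without the highest mouse of each group at thermoneutrality, chosen after seeing the data, the difference of the responses of Hspa1b turned to 0.22. Leaving out 1 mouse gave ranges that crossed 0 for results that had not passed: -2.03 to 0.16 for Hspa1a by label at thermoneutrality, -1.20 to 0.90 for the difference of the responses of Hspa1b, and -0.032 to 1.78 for Hspa1a in the cold in mice labelled FAKO. For the ratios these ranges were -0.41 to 0.082 for Hsph1 to Hspa8 by label at thermoneutrality and -0.013 to 0.42 for it in the cold in mice labelled FAKO. By label after cold they were -0.084 to 0.15 for Dnajb1 to Hspa8, -0.070 to 0.013 for Hspd1 to Hspe1 and -0.020 to 0.066 for Hsp90aa1 to Hsp90ab1. The 6 ratios past the threshold passed in every such fit.

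Afdn by label at thermoneutrality turned from -0.01 to 0.15 with library size alone, 0.021 with upper-quartile factors, 0.0039 with no filter, 0.0020 with at least 10 counts in every mouse, 0.0052 with only the groups compared and 0.014 without the 2 mice, and ran from -0.048 to 0.056 on leaving out 1 mouse. After cold DESeq2 called it lower (-0.32, adjusted p = 0.0465). Library size alone moved the median of all genes in the cold to -0.14 in control mice and -0.34 in mice labelled FAKO. It moved the median by label at thermoneutrality to 0.13, and upper-quartile factors moved that of cold to -0.12 and -0.18. Each member called in the cold kept its direction under these scalings. Spearman's rho shared 4 of the 5 genes most alike. No paired analysis was possible because the labels give neither pairs nor litters, although control mice were littermates.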
